A study of Mus musculus with 44 samples.

Results

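The numbered zinc finger protein genes of the mouse, those whose symbol is Zfp followed by digits alone, were followed through a count table of windows around transcription start sites. Gene IDs of the table were matched to RefSeq symbols of the GRCm38.p6 assembly, and 363 of its 27095 windows belonged to such a gene, out of 372 in the RefSeq table. The choice used the symbol only and no measured value. All libraries came from HPC7, a mouse haematopoietic progenitor line kept in RPMI with foetal calf serum, 2-mercaptoethanol and stem cell factor. The cells carried the retrovirus MSCV-IRES-GFP with no insert (empty vector, MIG-0), with wild-type Snai1 (MIG-wt), or with a Snai1 mutant (MIG-MUT) in which alanine replaces phenylalanine at position 5 and the interaction with the demethylase Lsd1 is impaired. GFP-positive cells were sorted a week after transduction and expanded, so every group shares the vector and the sort, and Snai1 was driven from the vector in an expanded population of infected cells. For each construct, 3 libraries of histone H3 lysine 4 monomethylation (H3K4me1) and 3 of dimethylation (H3K4me2) were counted, next to 2 IgG libraries from wild-type Snai1 cells and 1 list of Snai1 ChIP peaks per construct made from 4 technical replicates.

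Most genes named Zfp encode proteins with C2H2 zinc fingers, short modules that each hold a zinc ion and read a few bases of DNA. Many also carry a KRAB domain, which recruits Trim28 and, through it, the H3K9 methyltransferase Setdb1 and heterochromatin protein 1, and these genes sit in tandem clusters that arose by duplication and silence retroelements. H3K4me2 marks active promoters and enhancers, H3K4me1 spreads over enhancers and the flanks of promoters, and Snai1 is itself a C2H2 zinc finger repressor that binds the E-box CAGGTG and brings in Lsd1, which removes both marks.

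Window counts summed to 8694515 to 18199945 per H3K4me2 library, 4042976 to 8813537 per H3K4me1 library, and 3355479 and 2714255 in the IgG libraries. The median Zfp window held 446 to 926 H3K4me2 counts, 154 to 306 H3K4me1 counts, and 135 and 107 IgG counts. Of 10 progenitor marker genes 9 lay above IgG in H3K4me2 (all but Lmo2), where 36.1% of all windows did. The empty-vector median of the 10 was 166 CPM (counts scaled to the library total). None of 16 markers of T cells, B cells, epithelium and fibroblasts lay above IgG. In every construct and mark, replicate 1 stood apart from replicates 2 and 3: the variance between libraries was 9.49 to 17.7 times that of counting in pairs with replicate 1, and 0.980 to 2.30 times in pairs of replicates 2 and 3. The pair at 0.980 was empty-vector H3K4me1, which differed by less than the sampling noise and was counted as 1 sample. No source used here ties the replicate numbers to cultures, so a p-value measures the spread between these libraries, which may be technical. In such bulk libraries fewer marked cells and less methylation per cell cannot be told apart.

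Promoters of the members on which the results turn were read from RefSeq (GRCm38.p6) and run from 250 bases before to 50 after the first listed start site. The first set is shown for its CG content, with CG dinucleotides in capitals: Zfp36 (chr7:28379179-28379478, minus strand, 21 CG) had the highest H3K4me2 of the members with a promoter in the RefSeq table, Zfp966 (chr2:175931051-175931350, minus strand, 5 CG) had the lowest, and Zfp820 (chr17:21845710-21846009, minus strand, 9 CG) is a member whose replicates split by construct.
Zfp36: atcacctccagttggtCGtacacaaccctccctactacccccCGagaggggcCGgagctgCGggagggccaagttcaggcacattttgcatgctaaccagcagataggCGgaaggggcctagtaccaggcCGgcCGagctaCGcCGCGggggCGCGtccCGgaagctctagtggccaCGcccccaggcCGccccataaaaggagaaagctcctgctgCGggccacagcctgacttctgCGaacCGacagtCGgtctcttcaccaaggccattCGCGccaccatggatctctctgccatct
Zfp966: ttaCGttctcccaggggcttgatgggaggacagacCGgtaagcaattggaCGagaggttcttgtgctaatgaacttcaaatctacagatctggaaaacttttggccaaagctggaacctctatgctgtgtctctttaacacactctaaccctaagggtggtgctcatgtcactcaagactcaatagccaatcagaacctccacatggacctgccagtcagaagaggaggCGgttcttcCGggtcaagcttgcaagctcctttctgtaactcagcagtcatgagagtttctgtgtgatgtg
Zfp820: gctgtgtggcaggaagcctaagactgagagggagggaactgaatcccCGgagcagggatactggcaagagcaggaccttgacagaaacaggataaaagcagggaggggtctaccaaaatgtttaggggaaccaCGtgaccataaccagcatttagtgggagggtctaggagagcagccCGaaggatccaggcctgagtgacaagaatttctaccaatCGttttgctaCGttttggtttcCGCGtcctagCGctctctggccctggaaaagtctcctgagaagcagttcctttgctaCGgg
The second set is shown because a wild-type Snai1 summit lay inside the promoter next to an E-box, CAGGTG or its complement CACCTG, which is in capitals. These are Zfp953 (chr13:67360523-67360822, minus strand), Zfp759 (chr13:67127978-67128277, plus strand) and Zfp748 (chr13:67553103-67553402, minus strand), all in 1 cluster on chromosome 13, Zfp638 (chr6:83914103-83914402, plus strand) and Zfp217 (chr2:170142626-170142925, minus strand), which has an E-box in either orientation.
Zfp953: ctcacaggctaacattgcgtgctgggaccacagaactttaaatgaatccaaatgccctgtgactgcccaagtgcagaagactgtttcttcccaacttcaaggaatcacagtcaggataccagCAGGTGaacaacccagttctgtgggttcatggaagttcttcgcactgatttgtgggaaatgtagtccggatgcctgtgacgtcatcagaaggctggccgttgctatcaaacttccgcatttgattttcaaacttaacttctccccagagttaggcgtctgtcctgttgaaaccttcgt
Zfp759: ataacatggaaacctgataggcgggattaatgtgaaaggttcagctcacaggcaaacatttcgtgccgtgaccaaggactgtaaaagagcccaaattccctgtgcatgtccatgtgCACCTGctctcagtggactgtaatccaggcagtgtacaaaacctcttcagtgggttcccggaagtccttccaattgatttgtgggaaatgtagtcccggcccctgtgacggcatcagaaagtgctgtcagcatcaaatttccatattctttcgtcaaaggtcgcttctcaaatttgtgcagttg
Zfp748: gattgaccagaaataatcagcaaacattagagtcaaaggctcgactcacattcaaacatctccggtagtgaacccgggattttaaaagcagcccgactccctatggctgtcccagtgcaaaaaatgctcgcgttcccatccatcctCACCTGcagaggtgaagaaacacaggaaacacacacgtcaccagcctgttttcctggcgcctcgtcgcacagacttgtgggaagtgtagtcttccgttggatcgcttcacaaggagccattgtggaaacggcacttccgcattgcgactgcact
Zfp638: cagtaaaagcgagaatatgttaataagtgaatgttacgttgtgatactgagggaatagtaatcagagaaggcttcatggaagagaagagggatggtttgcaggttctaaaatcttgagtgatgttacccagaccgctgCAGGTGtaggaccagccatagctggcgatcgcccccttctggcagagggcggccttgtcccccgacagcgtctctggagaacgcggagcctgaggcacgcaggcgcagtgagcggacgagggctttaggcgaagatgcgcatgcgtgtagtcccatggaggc
Zfp217: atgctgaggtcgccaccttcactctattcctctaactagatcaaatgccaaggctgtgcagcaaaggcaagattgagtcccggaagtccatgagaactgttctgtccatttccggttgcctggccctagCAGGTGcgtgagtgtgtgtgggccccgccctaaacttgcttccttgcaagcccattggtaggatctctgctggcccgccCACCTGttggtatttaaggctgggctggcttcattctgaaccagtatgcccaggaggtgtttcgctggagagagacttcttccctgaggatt

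Numbered Zfp windows carried H3K4me2 more often than other windows and at a moderate level. In empty-vector cells their median was 52.3 CPM of the column total, against 8.53 CPM in the 26681 other windows. H3K4me1 had medians of 36.7 and 24.6 CPM and IgG of 40.2 and 39.0 CPM. The members fell into separate groups: 254 (70.0%) held at least 30 CPM of H3K4me2, 76 (20.9%) held under 10 CPM, and 33 (9.09%) lay between. Among other windows the shares were 41.8%, 51.3% and 6.9%. All windows have the same width of 5 kb, so levels can be set beside each other, although the mappable share of each window is not known.

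The background came from the IgG libraries, and each mark was set against them in wild-type Snai1 cells (3 libraries against 2) with edgeR's quasi-likelihood test, Benjamini-Hochberg adjusted over all windows at 0.05. H3K4me2 lay above IgG at 186 of 359 members tested (36.1% of all windows were called higher), below it at 89 (55.7% of all windows), and did not pass at 84. The median log2 ratio was 0.40 for the members and -1.92 over all windows. H3K4me1 lay above IgG at 94 of 356 members (27.7% of all windows), below at 116 (48.4%), and the median was -0.08 against -0.44 over all windows. Both marks were above IgG at 85 members and both below at 80. At 97 members H3K4me2 passed above IgG and H3K4me1 did not pass, at 4 H3K4me2 was above and H3K4me1 below, and at 2 the reverse held. These ratios compare shares of reads; with TMM scaling 269 members were above IgG in H3K4me2 (44% of all windows) and 72 below (51.2%), 175 were above in H3K4me1 (42.7%) and 70 below (43.2%), and the members' medians became 1.39 and 0.43. The members stood 2.40 (H3K4me2) and 0.38 (H3K4me1) above the other windows on the log2 scale. A change of scaling shifts all windows alike and can hardly move this gap.

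**Figure D1:**
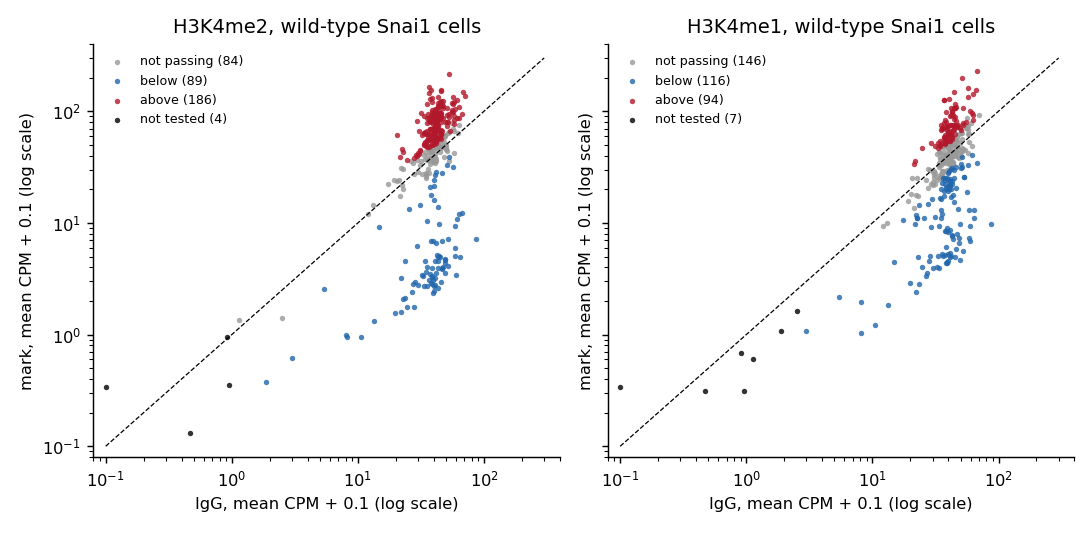
H3K4me2 (left) and H3K4me1 (right) at each numbered Zfp window in wild-type Snai1 cells against IgG, as mean CPM of column totals plus 0.1 on log axes; points are windows, colour is the edgeR call against IgG, and the dashed line marks equal values. In H3K4me2, 186 windows lie above IgG, 89 below, and 84 did not pass. Under 10 CPM of IgG are 11 windows.

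The highest H3K4me2 in the empty vector was at Zfp608 on chromosome 18 (205 ± 14.1 CPM, SD, n = 3). Zfp36, which encodes tristetraprolin, an mRNA-decay factor with CCCH in place of C2H2 fingers, followed at 170 ± 12.6 CPM (gene ID 22695, chr7:28376784-28379228). Its TMM-scaled H3K4me2 CPM was 159, 165 and 178 with the empty vector, 161, 178 and 173 with wild type, and 164, 151 and 147 with the mutant, where IgG held 41.1 and 32.4 CPM of column totals. The empty-vector and wild-type libraries of Zfp36 overlap, and its level over IgG was 2.15 on the log2 scale (edgeR adjusted p = 2.57e-07). Next came Zfp335, a chromatin-associated regulator needed for T cell maturation (168 ± 13.3 CPM), and Zfp592, a partner of the chromatin reader Zmynd8 (154 ± 3.92 CPM). Zfp526 (152 ± 2.79 CPM) and Zfp64 (149 ± 3.14 CPM) closed the leading 6. From Zfp36 on, neighbours in this order have overlapping ranges of mean ± SD.

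The lowest 6 members were Zfp966 (0.0383 ± 0.0664 CPM), Zfp967 (0.225 CPM), Zfp968 (0.239 CPM), Zfp781 (0.295 CPM), Zfp965 (0.717 CPM) and Zfp993 (0.738 CPM). Their IgG was at most 3.68 CPM: Zfp966 had 0 and 0.737 CPM, and Zfp967 had 0 in both libraries, which allows up to 0.894 and 1.11 CPM (3 counts per library, for counting error only). In all, 11 members had under 10 CPM of IgG (3.03%, against 5.62% of all windows), Zfp433, Zfp781, Zfp965, Zfp966, Zfp967, Zfp968, Zfp97, Zfp973, Zfp979, Zfp987 and Zfp993. The promoters of Zfp966 and Zfp967 are identical in 300 of 300 bases, those of Zfp968 and Zfp973 in 299, and those of Zfp965 and Zfp971 in 291. Reads of such copies could be split or dropped in the counting, so a low count there does not show absent methylation. All 11 also had under 10 CPM of H3K4me2 in the empty vector, and the other 65 of the 76 members at that level had 10 CPM of IgG or more.

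At a few members H3K4me1 was far above H3K4me2. Zfp651 held 61.7 CPM of H3K4me1 and 8.48 CPM of H3K4me2 in empty-vector cells (log2 ratio of H3K4me2 to H3K4me1 -2.86). Zfp750, a regulator of epidermal differentiation, held 70.0 and 10.9 CPM (-2.68), and Zfp652, a repressor that binds Cbfa2t3, held 42.2 and 7.71 CPM (-2.45). Zfp853 followed with 26.5 and 5.62 CPM (-2.24). In these 4 windows IgG ran from 35.4 to 52.5 CPM, and against it H3K4me2 was below at all 4, while H3K4me1 was above at Zfp750, below at Zfp853 and did not pass at the others. The single libraries moved in H3K4me1: Zfp750 had TMM-scaled CPM of 47.2, 95.4 and 87.1 with the empty vector, 50.8, 131 and 126 with wild type, and 46.7, 79.5 and 71.3 with the mutant, so replicate 1 was the lowest of each group.

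By known role, the general regulators and most genes of blood and immune cells were marked. Zfp143, a promoter-binding activator, held 79.0 CPM of H3K4me2, Zfp207, a spindle assembly factor, 134 CPM, and Zfp410, the activator of the remodeler gene Chd4, 54.0 ± 20.1 CPM. All 8 general regulators lay above IgG in H3K4me2 (36.1% of all windows). Of 8 genes known from blood and immune cells 7 did, among them Zfp91, a ubiquitin ligase (147 ± 25.2 CPM; its counts equal those of a later row of the table), Zfp467 (115 CPM), Zfp148, a regulator of erythroid genes (92.8 CPM), and Zfp318, which B cells need for IgD (82.0 CPM). Zfp105 held 4.27 CPM and was below.

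Among 7 stem cell and development genes 4 lay above IgG in H3K4me2 (36.1% of all windows) and 3 below (55.7%). Over all members tested the shares were 51.8% and 24.8%. Zfp521, a cofactor known from blood stem cells, held 137 ± 9.84 CPM, Zfp462 132 CPM, Zfp703 111 CPM and Zfp281 104 CPM. Zfp42, the pluripotency marker Rex1, held 3.42 ± 0.98 CPM (log2 ratio to IgG -3.61), Zfp423, an adipocyte and neuronal factor, 4.49 CPM (-3.78), and Zfp536, a neuronal factor, 3.23 CPM (-3.77). The imprint guardians differed: Zfp57 (73.5 ± 8.88 CPM; log2 ratio 0.46, edgeR adjusted p = 0.0101) and Zfp568, the repressor of a placental Igf2 transcript (77.8 ± 0.226 CPM; 0.91, adjusted p = 2.6e-05), were above IgG, and Zfp445 did not pass (36.3 ± 4.17 CPM; -0.16, adjusted p = 0.375).

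Genes known for silencing retroelements and retroviruses ranged from unmarked to well marked. Zfp932, which represses endogenous retroviruses, held 61.0 ± 4.02 CPM (log2 ratio to IgG 0.87, edgeR adjusted p = 0.000105) and Zfp961 held 81.3 CPM (0.63), both above IgG. Zfp809, which recognises the primer-binding site of murine leukaemia virus, did not pass at 38.2 ± 5.17 CPM (0.03, adjusted p = 0.868), nor did Zfp638, a silencer of unintegrated retroviral DNA, at 50.5 CPM (0.20). Zfp708 (3.97 ± 0.418 CPM; -2.90) and Zfp992 (9.34 CPM; -3.61) lay below. None of these 6 passed in a comparison of constructs.

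Runs of at least 3 members with gaps of at most 250 kb made up 28 clusters with 183 members, and 180 members stood outside. H3K4me2 in clusters had a median of 46.7 CPM, against 58.0 CPM outside, and H3K4me1 32.3 against 42.0 CPM. In clusters 83 of 183 members were above IgG in H3K4me2 (45.4%) and 34 of 181 in H3K4me1 (18.8%), and outside 103 of 176 (58.5%) and 60 of 175 (34.3%), where all windows had 36.1% and 27.7%. Below IgG in H3K4me2 were 43 clustered members (23.5%) and 46 outside (26.1%), and under 10 CPM were 18.6% and 23.3%; the differences between clustered members and the rest were not tested. Many clusters held members above and below IgG together, and others had members on 1 side only.

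The largest cluster, 19 genes on chromosome 13 (chr13:67038594-67827000), had a median of 36.0 CPM with a range from Zfp708 (3.97 CPM) to Zfp87 (62.9 CPM), close to its IgG median of 34.8 CPM, and only 4 of its members were above IgG. The 2 clusters of chromosome 17 held 18 genes (chr17:21383707-22456689; median 55.0 CPM, from Zfp677 at 3.98 to Zfp52 at 122 CPM) and 11 genes (chr17:32765496-33631716; 55.6 CPM, from Zfp811 at 7.92 to Zfp472 at 90.0 CPM), with 9 and 7 members above IgG. On chromosome 7, 15 genes (chr7:29768552-30169775) had a median of 57.7 CPM and lay between Zfp82 at 31.4 and Zfp566 at 95.8 CPM, with 11 above IgG. Of the 8 largest, the run of 10 genes at chr7:127233061-127885996 had the highest median, 83.4 CPM (36.7 to 117 CPM), and was the only one with all members above IgG.

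The remaining runs of the 8 largest differed, and some stood low. The cluster of 12 genes at chr7:24081877-24587840 had a median of 23.8 CPM and held Zfp112 (3.00 CPM), Zfp114 (3.32 CPM) and Zfp111 (4.26 CPM) together with Zfp428 (79.9 CPM); 3 members were above IgG and 6 below. At chr4:147443114-147849126 the median of 6 genes was 5.20 CPM against 44.4 CPM of IgG, Zfp933 (58.0 CPM) being the only member above. The runs at chr7:4915181-5053723 and chr7:6131489-6396637 also hold 6 genes each and follow it only by the order of listing. Their medians were 65.6 and 75.6 CPM. In the 8 genes at chr6:47815536-48086986 the median was 63.4 CPM and Zfp783 (4.66 CPM) the only member below IgG. In each empty-vector replicate the chromosome 4 cluster had the lowest median of these 8 (5.05, 5.16 and 5.41 CPM) and the run of 10 genes the highest (82.4, 83.7 and 79.9 CPM). Runs of 4 genes on chromosome 4, 3 on chromosome 11 and 3 on chromosome 9 had medians of 4.94, 4.96 and 4.27 CPM and no member above IgG.

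**Figure D2:**
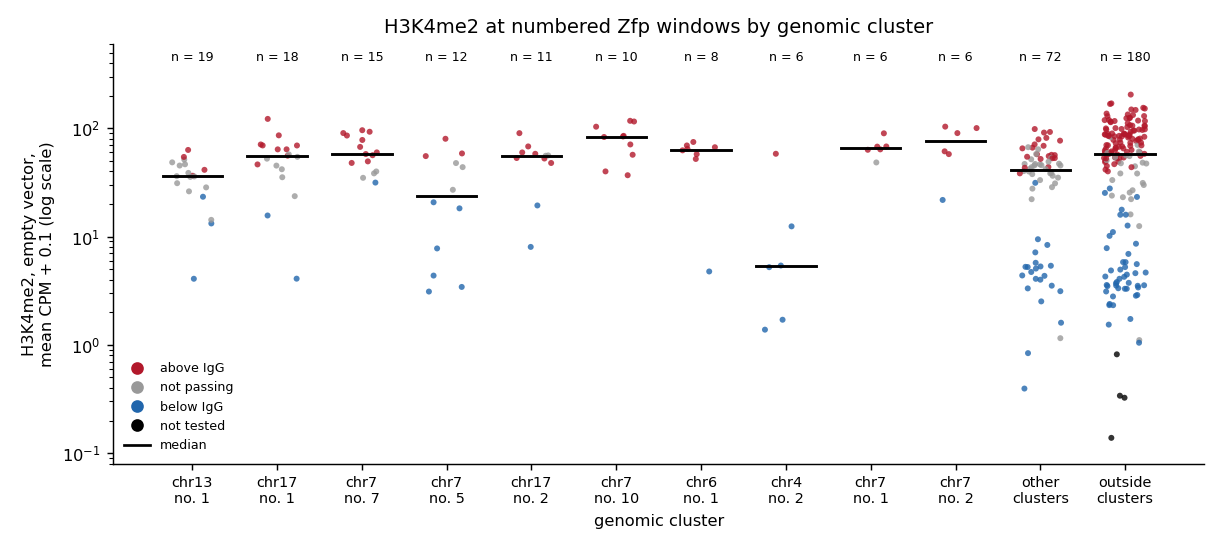
Empty-vector H3K4me2 at each numbered Zfp window (mean CPM of 3 libraries plus 0.1, log axis) for the 10 largest genomic clusters, the other clusters together and the members outside clusters; colour is the edgeR call of H3K4me2 against IgG in wild-type cells and bars are medians. The chromosome 4 run has a median of 5.20 CPM, and run 10 of chromosome 7, with all 10 windows above IgG, has 83.4 CPM.

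The CG content of the promoter, which the choice of members did not use, went along with the level. A promoter was listed for 301 members (53 have several, of which the first was used), with a median of 13 CG dinucleotides, the same as over all genes. Members with 0 to 5 CG, such as Zfp966, had a median of 6.42 CPM of H3K4me2 in the empty vector, those with 6 to 10 had 39.7 CPM, those with 11 to 15 had 56.2 CPM, those with 16 to 20 had 53.6 CPM, and those with at least 21, such as Zfp36, had 69.2 CPM. The rise was not steady: below IgG lay 5 of 47 members with 11 to 15 CG and 16 of 59 with 16 to 20. Of 74 members with at least 21 CG 54 were above IgG and 12 below. Spearman's rho across the 301 members was 0.435 for H3K4me2, 0.455 for H3K4me1 and 0.254 for IgG, a description over windows that share libraries and base composition. Over all genes the medians were 3.31, 6.62, 45.1, 59.9 and 71.7 CPM in the same classes, so the Zfp median was the higher one up to 15 CG and the lower one above; these differences were not tested.

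**Figure D3:**
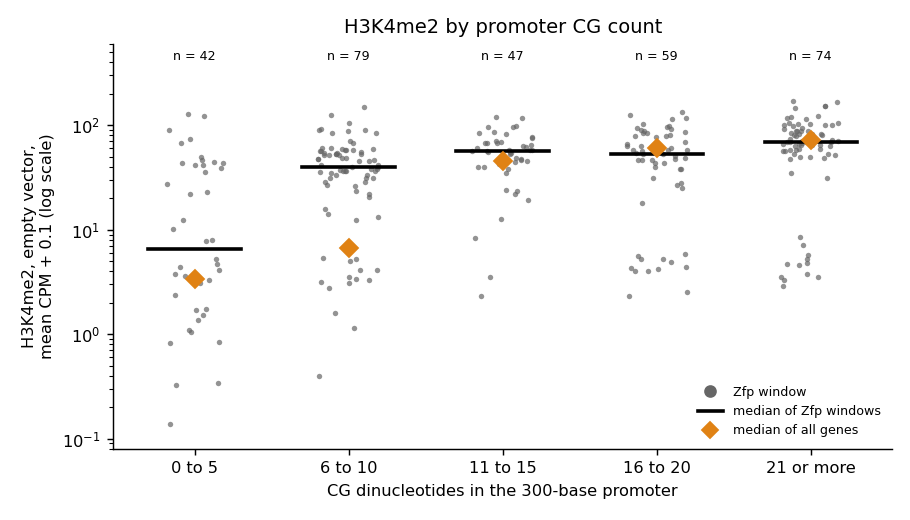
Empty-vector H3K4me2 (mean CPM of 3 libraries plus 0.1, log axis) of 301 numbered Zfp windows by the number of CG dinucleotides in the RefSeq promoter; bars are medians of Zfp windows and diamonds medians of all genes. The Zfp median goes from 6.42 CPM with 0 to 5 CG to 69.2 CPM with at least 21, and a low group stays in each class.

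Snai1 peaks were counted within 5 kb of each gene in the deposited lists, whose fold enrichment over local background is the authors' value. In wild-type cells 38 of 363 members had a peak (10.5%, exact Clopper-Pearson 95% interval 7.52 to 14.1%), close to 10.2% of all genes. In mutant cells 149 had one (41.0%, 35.9 to 46.3%), against 32.9% of all genes, and in empty-vector cells 2 (0.551%, against 0.587%), Zfp358 at 6.42-fold and Zfp786 at 5.35-fold. Of the 38 members 36 also had a mutant peak. Of 42 wild-type peaks 36 (85.7%) were overlapped by a mutant peak, and of 210 mutant peaks 36 (17.1%) by a wild-type one. The intervals cover counting error only and take genes as independent, although neighbours such as Zfp953 and Zfp456 can share a peak. The members' higher mutant share did not hold in each class of H3K4me2. Above IgG it was 52.7% of members against 63.6% of all genes, and below IgG 14.6% against 10.6%. Each construct has 1 list, so the difference between lists has no replicate check.

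The strongest wild-type peak lay in Zfp367 (26.1-fold; chr13:64152047-64152517, its summit 902 bp inside the gene), where the mutant reached 30.6-fold. Zfp953 followed with 14.5-fold (chr13:67360519-67361017, summit 127 bp before the start; 11.9-fold in the mutant), a peak that also lies within 5 kb of Zfp456. Zfp608 had 12.7-fold and Zfp759 12.4-fold (chr13:67127766-67128329, summit 145 bp before the start), with 11.4- and 17.5-fold in the mutant. Zfp652 (10.8-fold), Zfp526, Zfp282 and Zfp839 (each 10.5-fold) closed the leading 8.

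In the mutant list the leading members were Zfp367, Zfp759, Zfp687, a further Zmynd8 partner (16.3-fold), Zfp605 (16-fold), Zfp217, which copurifies with Lsd1 and CtBP corepressors (14.7-fold), Zfp422 (14.1-fold), Zfp652 (14.0-fold) and Zfp341 (12.5-fold). At the same places wild type gave 4.06-fold for Zfp687, 6.76-fold for Zfp605, 4.08-fold for Zfp217 and 8.39-fold for Zfp422, and no peak at Zfp341. Wild-type peaks that no mutant peak overlapped, named here after their values were seen, lay near Zfp422 (8.27-fold, apart from its shared peak), Zfp511 (6.90), Zfp748 (6.87), Zfp710 (5.81), Zfp142 (5.72) and Zfp523 (4.51).

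In pairs of peak and gene with a known start site, 16 of 37 wild-type and 85 of 174 mutant summits lay within 500 bp of it. The rest lay farther away, and the share over all genes was not counted. The E-box CAGGTG, on either strand, was present in 38 of 301 member promoters (12.6%), against 19.5% of 18458 promoters of all genes. In the 8 member promoters that held a wild-type summit 5 had it (58.9% of 253 over all genes), namely Zfp217, Zfp638, Zfp748, Zfp759 and Zfp953. From the summit to the centre of the nearest E-box the distance was 1.5 bp in Zfp953, 11.5 bp in Zfp748, 13.5 bp in Zfp638 and Zfp759, and 35.5 bp in Zfp217; the capitals in the printed promoters mark the E-boxes. Promoters with a mutant summit held the E-box in 12 of 58 cases (20.7%, against 25% of 2186 over all genes). Those with a mutant and no wild-type summit held it in 8 of 52 (15.4%, against 20.6% of 1963). A match of letters is a description and not a site of binding.

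Members with H3K4me2 above IgG had more peaks than members below it. Of the 186 above, 26 (14.0%) had a wild-type and 98 (52.7%) a mutant peak, where all genes above IgG had 20.2% and 63.6%. Of the 89 below, 4 (4.49%) and 13 (14.6%) did, where all genes below had 3.23% and 10.6%. Of the 84 that did not pass, 8 (9.52%) and 38 (45.2%) did, where all such genes had 12.9% and 49.0%. The difference between members and all genes in these shares was not tested. A wild-type peak also occurred at Zfp953, Zfp759 and Zfp638, none of which passed above IgG by column totals. Their empty-vector H3K4me2 was 45.2, 35.4 and 50.5 CPM, within the group of members with at least 30 CPM.

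Whether Snai1, and its binding of Lsd1, changed the marks was asked by comparing constructs in each mark (edgeR's quasi-likelihood test, adjusted over all windows, over 9 libraries in H3K4me2 and over 8 samples in H3K4me1, where the empty vector has 2). No member passed in any of the 6 comparisons. In H3K4me2 wild type gave 0 of 358 members against the empty vector (0.00388% of all windows), the mutant gave 0 (0%), and the 2 Snai1 constructs against each other gave 0 (0%). In H3K4me1 the 3 comparisons gave 0 of 356 (0% of all windows). At an unadjusted p under 0.05 there were 30, 12 and 23 members in H3K4me2 (7.32%, 4.95% and 9.9% of all windows) and 2, 2 and 12 in H3K4me1 (2.88%, 1.61% and 5.24%). DESeq2 also called 0 members in all 6 (0.342%, 0.0311% and 0.28% of all windows in H3K4me2, then 0.0155%, 0% and 0.124% in H3K4me1). So did edgeR with a block for the replicate number (0.0194%, 0% and 0.0466%, then 0.00782%, 0% and 0.00782%).

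Leaving out a replicate 1 brought calls in H3K4me2. For wild type against empty vector 10 members passed without empty-vector replicate 1 (2.79% of all windows) and 6 without wild-type replicate 1 (0.682%). The mutant comparison gave 5 without empty-vector replicate 1 (1.58%) and 5 without mutant replicate 1 (2.4%). Between wild type and mutant, 66 passed without mutant replicate 1 (16.6%) and 6 without wild-type replicate 1 (0.957%). In H3K4me1 0 passed without wild-type replicate 1 (0.00781% of all windows in either comparison), and Zfp41 alone passed, for wild type against mutant without mutant replicate 1 (0.823% of all windows). In such fits construct and replicate set cannot be told apart for the group that lost its replicate 1.

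The members as a group moved little. Their median log2 difference in H3K4me2 was 0.05 for wild type against empty vector (226 of 358 above 0; other windows -0.01), -0.01 for the mutant (168; 0.03) and 0.08 for wild type against mutant (234; -0.04). In H3K4me1 the medians were 0.04, 0.03 and 0.04 (211, 199 and 214 of 356 above 0; other windows -0.02, 0.00 and -0.01). With column totals in place of TMM the H3K4me2 medians were -0.02, 0.00 and 0.00 and those of other windows -0.07, 0.04 and -0.13. The members' sign for wild type against empty vector thus turned with the scaling. The other comparisons kept theirs, at -0.0034 for the mutant and 0.00019 for wild type against mutant by column totals. The gap between members and others was 0.05, -0.04 and 0.13 with TMM, and a change of scaling can hardly move it. The other windows are not matched to the members in level, since 51.3% of them held under 10 CPM of H3K4me2 in the empty vector. Among them the silent olfactory and vomeronasal receptor windows had medians of -0.14, 0.22 and -0.36. A gap from level alone was not tested. The gap also rested on the replicates. It was 0.00, 0.07 and -0.06 within replicate 1 and 0.08, -0.13 and 0.28 within replicates 2 and 3, and with 1 library left out it ran from 0.03 to 0.09, from -0.12 to -0.01 and from 0.06 to 0.24 (-0.12 and 0.24 without mutant replicate 1). Within replicate 1 and within replicates 2 and 3 the members' medians were 0.00 and 0.06, 0.09 and -0.07, and -0.09 and 0.18, so the last 2 comparisons changed sign between these replicate sets. The libraries of the constructs did not overlap at 53 members for wild type against empty vector in H3K4me2 (14.8%; 12.9% of all windows), at 19 for the mutant (5.31%; 6.87%) and at 29 between wild type and mutant (8.1%; 9.21%). In H3K4me1 there were 47 (13.2%; 10.8%), 32 (8.99%; 7.96%) and 27 (7.58%; 8.71%). The comparisons share libraries and are not independent.

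Members near a Snai1 peak had medians close to those of the rest. With a wild-type peak the median H3K4me2 difference of wild type against empty vector was 0.02 (24 of 38 above 0), and without one 0.05 (202 of 320). With a mutant peak the same comparison gave 0.07 (108 of 149) and without one 0.03 (118 of 209). The mutant against the empty vector gave -0.03 (67 of 149) with a mutant peak and -0.01 (101 of 209) without one. Wild type against mutant gave 0.10 (112 of 149) and 0.05 (122 of 209). At Zfp367, which has the strongest peak, TMM-scaled H3K4me2 CPM was 110, 105 and 98.9 with the empty vector, 107, 134 and 119 with wild type and 110, 92.9 and 98.3 with the mutant (log2 differences from the empty vector 0.20, SE 0.11, and -0.06, SE 0.11; edgeR adjusted p = 0.778 and 0.962). These groups overlap. Zfp953 kept to 41.4 to 45.3 CPM in all 9 libraries.

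Members with the smallest p whose libraries did not overlap are given as values that did not pass. For wild type against empty vector in H3K4me2 the higher ones, Zfp318, Zfp40, Zfp952, Zfp942 and Zfp945, all lie on chromosome 17, with log2 differences of 0.49, 0.39, 0.41, 0.30 and 0.37 (edgeR adjusted p = 0.489 to 0.535). Zfp318 (chr17:46383515-46420920) had TMM-scaled CPM of 97.4, 75.5 and 70.4 with the empty vector, 104, 131 and 107 with wild type and 111, 83.3 and 80.9 with the mutant. All 3 wild-type libraries are above the empty vector, but replicate 1 of wild type is below replicate 1 of the mutant. The lower ones were Zfp979 (-0.79), Zfp366 (-0.59), Zfp541 (-0.55), Zfp58 (-0.28) and Zfp735 (-0.47).

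For the mutant against the empty vector the higher ones were Zfp39 (0.52), Zfp963 (0.56), Zfp961 (0.25), Zfp930 (0.27) and Zfp958 (0.23), of which the last 4 lie on chromosome 8, and the lower ones Zfp719 (-0.26), Zfp30 (-0.25), Zfp335 (-0.17) and Zfp653 (-0.18), all with an edgeR adjusted p of 0.952. Zfp963 (gene ID 620419, chr8:69741639-69749962) had H3K4me2 of 41.8, 26.7 and 24.3 CPM with the empty vector, 40.4, 30.7 and 30.3 with wild type and 45.0, 47.2 and 45.1 with the mutant. The mutant libraries of Zfp963 agree within a narrow range, and the other constructs lie lower in replicates 2 and 3. Its H3K4me1 difference was 0.67 for the mutant against the empty vector. Between wild type and mutant the higher ones were Zfp994 (0.41), Zfp24 (0.22), Zfp945 (0.26), Zfp825 (0.21) and Zfp975 (0.24), and the lower ones Zfp90 (-0.68), Zfp979 (-0.93), Zfp612 (-0.71), Zfp108 (-0.91) and Zfp474 (-0.61; adjusted p = 0.503 to 0.508 for these 10). Zfp108 (chr7:24254726-24262445) had 17.2 CPM in wild-type replicate 1 and 6.0 and 8.27 in replicates 2 and 3, where the mutant had 17.2, 22.3 and 20.5 CPM. The highest wild-type library of Zfp108 thus reached the level of the lowest mutant library.

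In H3K4me1 no named member came near the threshold. Against the empty vector wild type was higher at Zfp362 (0.44), Zfp799 (0.35), Zfp748 (0.37), Zfp994 (0.53) and Zfp617 (0.34) and lower at Zfp108 (-0.80), Zfp541 (-0.43), Zfp185 (-0.52), Zfp488 (-0.59) and Zfp442 (-0.44). The mutant, besides Zfp963, was higher at Zfp747 (0.28), Zfp300 (0.50), Zfp575 (0.41) and Zfp866 (0.29) and lower at Zfp872 (-0.70), Zfp600 (-0.59), Zfp488 (-0.48), Zfp65 (-0.30) and Zfp619 (-0.30). Wild type stood above the mutant at Zfp507 (0.46), Zfp994 (0.61), Zfp438 (0.34), Zfp2 (1.07) and Zfp422 (0.42), and below at Zfp963 (-0.58), Zfp747 (-0.35), Zfp442 (-0.55), Zfp316 (-0.29) and Zfp612 (-0.71; edgeR adjusted p = 0.848 to 0.982 for these 10).

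Single members stood out in how the replicates split, and these were chosen after their values were seen. Zfp820 (gene ID 75424, chr17:21816876-21845759) had H3K4me2 of 35, 5.68 and 5.82 CPM with the empty vector, 33.0, 30.8 and 34.9 with wild type and 38.6, 7.49 and 6.99 with the mutant. In replicates 2 and 3 wild type kept the level of replicate 1, and the other constructs lay about as low as unmarked members. H3K4me1 of Zfp820 followed, with 24.3, 5.30 and 5.16, then 17.7, 19.5 and 19.8, then 20.9, 6.77 and 5.90 CPM. Zfp563 in the other chromosome 17 cluster (gene ID 240068, chr17:33089367-33110707) had 39.4, 8.62 and 9.51 CPM of H3K4me2 with the empty vector, 39.5, 38.9 and 43.4 with wild type and 41.8, 23.8 and 24.7 with the mutant. Zfp2 on chromosome 11 (gene ID 22678, chr11:50897265-50916216) had 14.5, 4.60 and 5.48 CPM, 16.7, 15.6 and 17.3 CPM, and 15.7, 4.56 and 5.61 CPM in the same order.

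With a term for the replicate set (1, or 2 and 3) and replicates 2 and 3 summed, Zfp820 (log2 difference 1.34, edgeR adjusted p = 0.00213) and Zfp563 (1.04, adjusted p = 0.00664) passed for wild type against empty vector in H3K4me2 (0.342% of all windows), and Zfp820 for wild type against mutant (1.17, adjusted p = 0.0126; 0.45% of all windows). With the shift of each chromosome also removed, Zfp820 passed against the empty vector (1.12, adjusted p = 0.0397; 0.254% of all windows) and no member did in the other comparisons of H3K4me2 (0.0538% and 0.373%; for the mutant against the empty vector with the same term alone 0.073%). In H3K4me1 no member passed with the same term (0.085%, 0.00386% and 0.0734% of all windows in the same order of comparisons) or with the chromosome shift also removed (0.39%, 0.0463% and 0.22%). The split was also counted over windows that reached 10 CPM, a limit that replicate 1 alone could meet. Replicates 2 and 3 both lay more than 2-fold from replicate 1 in H3K4me2 at 4 of 290 such empty-vector members (1.38%, against 3.3% of all such windows). These were Zfp2, Zfp563, Zfp820 and Zfp964, all lower. Zfp2, Zfp563 and Zfp820 were under 10 CPM in empty-vector replicates 2 and 3, so their direction is not independent of the limit. In wild type 6 members did (2.07%, against 2.47%), and in the mutant 4 (1.37%, against 3.18%), Zfp2, Zfp53, Zfp820 and Zfp964.

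**Figure D4:**
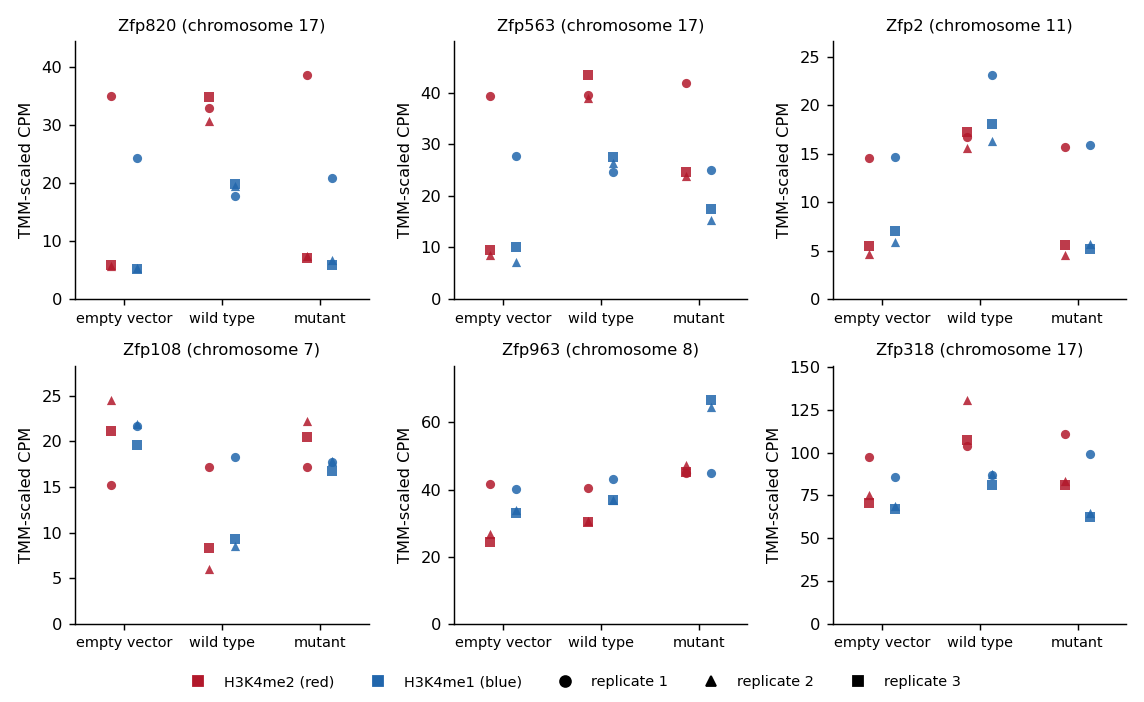
TMM-scaled CPM of H3K4me2 (red) and H3K4me1 (blue) in every library of 6 members by construct, linear axes from 0; the marker shape is the replicate. At Zfp820 replicates 2 and 3 lie at 5.68 to 7.49 CPM of H3K4me2 in empty-vector and mutant cells and at 30.8 and 34.9 CPM in wild-type cells, while replicate 1 is at 33.0 to 38.6 CPM in all 3.

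Some differences between constructs ran along whole chromosomes. Of the 30 members with an unadjusted p under 0.05 for wild type against empty vector in H3K4me2, 19 were on chromosome 17. The 41 members there had a median of 0.30 (35 above 0), next to 0.25 for the other windows of that chromosome. The median was -0.02 in replicate 1 and 0.49 in replicates 2 and 3 (other windows -0.04 and 0.41), and with the chromosome shift removed it was 0.05. Both chromosome 17 clusters had it, with 0.30 each, 14 of 18 and 10 of 11 members above 0, -0.02 each in replicate 1, and 0.52 and 0.49 in replicates 2 and 3. H3K4me1 on chromosome 17 had a median of 0.23 (38 members above 0), with -0.10 and 0.54 in the replicate sets. The cause of the shift was not tested. In IgG the median window of chromosome 17 held 56.6 CPM in replicate 1 and 47.5 CPM in replicate 2, against 38.2 and 38.3 CPM over all windows. Chromosome 8 held 58.7 and 45.0 CPM and chromosome 1 held 57.5 and 57.1 CPM. IgG was counted in wild-type cells only, so it cannot be compared between constructs.

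On chromosome 8 the mutant stood apart: 25 members had a median of 0.20 against the empty vector (22 above 0; other windows 0.21), of 0.06 in replicate 1 and 0.29 in replicates 2 and 3, and of -0.01 with the chromosome shift removed. The runs there, of 5 and 4 genes, had 0.27 and 0.19. On chromosome 7, which holds 90 tested members, the mutant difference was -0.10 (11 above 0; other windows -0.05), with 0.09 in replicate 1 and -0.19 in replicates 2 and 3. There wild type against mutant gave 0.14 (72 above 0; other windows -0.03), of -0.09 and 0.26 in the replicate sets and still 0.14 with the shift removed. The 15 genes at chr7:29768552-30169775 had 0 of 15 above 0 for the mutant (median -0.10; 0.07 and -0.26 in the replicate sets). So the direction on chromosome 7 turned between replicate 1 and replicates 2 and 3.

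**Figure D5:**
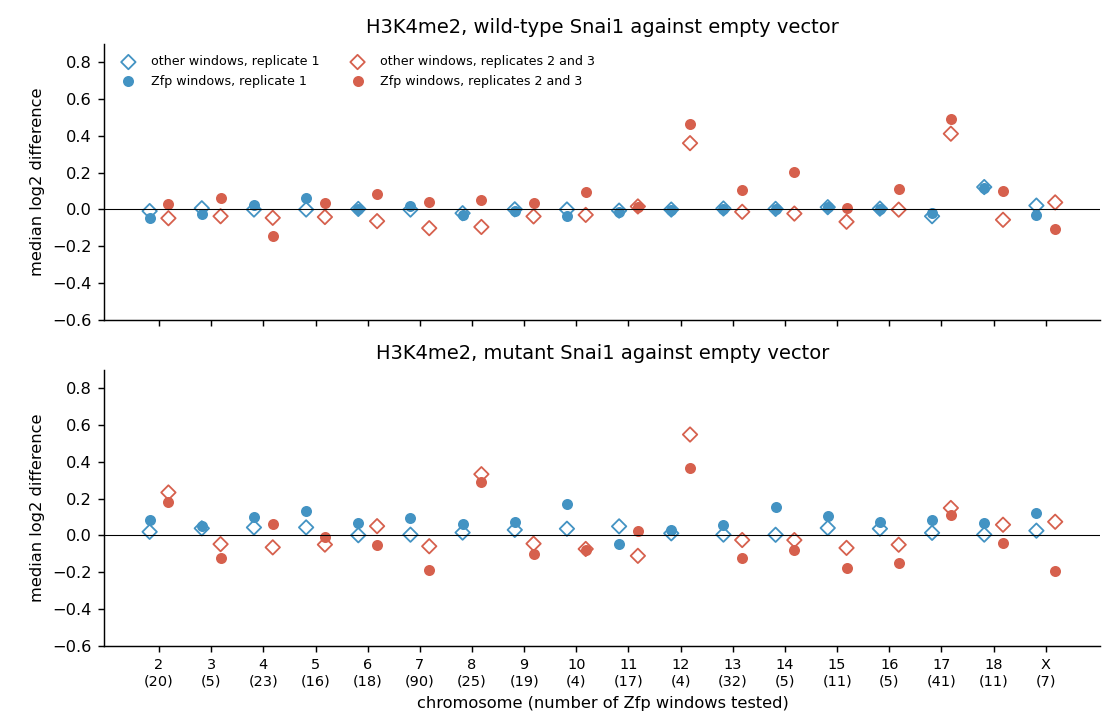
Median log2 difference in H3K4me2 by chromosome for wild type (top) and mutant (bottom) against the empty vector, shown for numbered Zfp windows (filled circles) and other windows (open diamonds) in replicate 1 (blue) and in replicates 2 and 3 (red); the number of Zfp windows is under each chromosome. In replicates 2 and 3 the Zfp median reaches 0.49 on chromosome 17 in wild type and 0.29 on chromosome 8 in the mutant, near the medians of the other windows, and replicate 1 is at -0.02 and 0.06.

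The corepressor pathway through which KRAB zinc finger proteins act was read as a list of 30 genes, of which 29 have a window. In H3K4me2 25 lay above IgG (36.1% of all windows) and 2 below (55.7%), and in H3K4me1 18 above (27.7%). Trim28, the scaffold that binds KRAB, held 125 CPM in the empty vector, Cbx5, a heterochromatin protein 1, 135 CPM, and the remodeler genes Chd4 and Chd3 145 and 147 CPM. Setdb1 did not pass against IgG (28.5 CPM; log2 ratio -0.21, edgeR adjusted p = 0.327), and Dnmt1 (16.9 CPM; -1.32) and Ehmt1 (7.06 CPM; -3.37) were below. Between constructs 0 of the 29 passed, in H3K4me2 and in H3K4me1. Their median for wild type against empty vector in H3K4me2 was 0.10 (23 above 0), next to -0.01 over all windows. All windows are not matched to this mostly marked list in level: the silent olfactory and vomeronasal receptor windows among them had a median of -0.14. The difference was not tested.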

How the data were processed

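The deposited table holds raw counts of reads per 5 kb window, 1 per Entrez gene ID, made by the authors with Subread and featureCounts on GRCm38 (tools and build per the submitters' processing notes, versions not given in the sources used here). The deposited peak lists give, per peak, a fold enrichment (a ratio over local background), a −log10 q, and a score from the authors' caller, MACS2 per the same notes (build mm10). All 20 columns were mapped by construct, mark and replicate. Of 27095 rows, 51 were left out (50 equal to an earlier row and 20 with no read, 19 of them both), and 25204 IDs (93.0%) matched a symbol. Window positions are not in the table, and 40 of 301 members with a known start have another gene's start within 5 kb and can share its reads.

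Counts were tested with edgeR 4.0.16 (R 4.3.3) over 9 libraries in H3K4me2 and 8 samples in H3K4me1, the counts of empty-vector replicates 2 and 3 being summed there (TMM, filterByExpr, two-sided quasi-likelihood test, Benjamini-Hochberg adjustment at 0.05 over all windows). Against IgG, library size was the column total. DESeq2 1.42.0, a replicate block, a term for replicate 1 against replicates 2 and 3, a chromosome offset, other scalings and filters, and leaving out each library were alternatives; this term together with the offset was added after seeing the data. Simulated H3K4me2 counts over 25742 windows had a dispersion of 0.02 and 200 windows changed 2-fold. The wild type against empty vector test recovered 154 of these, with 6 false calls. The simulated libraries had no split of replicate 1 from replicates 2 and 3 and no chromosome shifts. This recovery therefore does not give the power of the test in the real libraries. Same-numbered libraries of the empty vector and each Snai1 construct deviated together in H3K4me2 (correlations 0.333, 0.196 and 0.253 with wild type, and 0.375, 0.164 and 0.304 with the mutant). Empty-vector replicates 2 and 3 also did so with the other number, replicate 3 or 2 (0.157 and 0.0894 with wild type, 0.204 and 0.271 with the mutant). This check sets replicate 1 apart and does not show that the numbers 2 and 3 pair samples. The labels do not say what the numbers share. A peak was near a gene when it overlapped the gene extended by 5 kb on each side by at least 1 base. Promoters and gene positions are RefSeq's (GRCm38.p6); zinc finger and KRAB matches in proteins were planned and not run here.

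Members named in each comparison are those that passed or, where under 10 did, up to 5 per direction with the smallest p and no overlap between libraries. Others are the 6 highest and 6 lowest in empty-vector H3K4me2, the 4 with most H3K4me1 relative to H3K4me2, the 8 strongest per peak list, every member with an empty-vector peak, the 8 largest clusters, and genes of known role. The members and all lists were chosen with earlier results of these data known. Figures were drawn with matplotlib 3.10.9, and tables made with Python 3.11.15 (pandas 2.3.3, scipy 1.17.1).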

Additional observations from a re-analysis of the deposited data

How the results depend on the processing

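The counts of members passing between constructs were 0 in all 6 comparisons with DESeq2, the chromosome offset and the other scalings and filters, and in the 3 of H3K4me1 with every library kept separate. With a term for replicate 1 against replicates 2 and 3 they became 2 for wild type against empty vector and 1 for wild type against mutant in H3K4me2, and with that term and the offset 1 for wild type against empty vector. Leaving out 1 library gave 0 to 10, 0 to 5 and 0 to 66 members in H3K4me2 (wild type and mutant, each against the empty vector, then against each other), and 0 to 1 for the last in H3K4me1. The calls came without a replicate 1, where construct and replicate set are partly confounded. There passed Zfp318, Zfp952, Zfp945 and, in the mutant, Zfp963 without empty-vector replicate 1, Zfp39, Zfp30, Zfp24 and Zfp975 without mutant replicate 1, and Zfp90 and Zfp108 without wild-type replicate 1. Members above IgG in H3K4me1 were 94 by column totals and 175 with TMM, which assumes that most windows have equal levels, and with 1 library left out 67 to 110; in H3K4me2 the count stayed between 166 and 192 with 1 library left out. At a −log10 q of at least 10, 17 members had a wild-type and 80 a mutant peak, fewer because fewer peaks remain. The shares at this limit were 4.68% of members against 4.5% of all genes in wild type, and 22.04% against 18.04% in the mutant. Gaps of up to 100 kb gave 28 clusters and of 500 kb 32.

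With the replicate number as a block, 0 members passed in each of the 6 comparisons. For wild type and mutant the numbers were not shown to pair the libraries (correlations -0.07, -0.22 and 0.13 in H3K4me2), and the block took all windows from 0 to 12 in H3K4me2 and from 0 to 2 in H3K4me1. Against IgG, the block gave 173 members above in H3K4me2 (35.1% of all windows) and 89 in H3K4me1 (25.9%). Depth leaves windows with few reads, such as Zfp966, untested, and a member that did not pass may still have changed.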

Other observations

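Chromosome 12 stood apart in replicates 2 and 3 between the empty vector and both Snai1 constructs, and its 4 tested Zfp members moved with it. For wild type against empty vector in H3K4me2 they had a median log2 difference of 0.26 (4 of 4 above 0; other windows 0.24), with 0.00 in replicate 1 and 0.46 in replicates 2 and 3. For the mutant the median was 0.23 (4 of 4 above 0; other windows 0.32), with 0.03 and 0.37. With the chromosome shift removed the medians were -0.06 and -0.08. Its part in the members' values beyond this offset was not tested.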
